A study of Mus musculus with 10 samples.

Results

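The genes described here are Vnn1, Plin2, Hadhb and Hsd17b4, which take part in the burning of fatty acids, in the coating of lipid droplets or in the liver's response to the nuclear receptor PPAR-alpha. Every probe set that the array's annotation gives to one of these genes alone was taken. Each gene had 1 such probe set, so 4 genes of the 5928 measured and 4 of the 11868 tested probe sets are described, and 0 probe sets shared between several genes named any of them. The probe sets are 168544_f_at for Vnn1, 135341_r_at for Plin2, 139046_at for Hadhb and 138245_at for Hsd17b4. In the mouse reference annotation (GRCm38.p6) Vnn1 lies on chromosome 10 (23894688 to 23905344), Plin2 on chromosome 4 (86626910 to 86670217), Hadhb on chromosome 5 (30155253 to 30184593) and Hsd17b4 on chromosome 18 (50128201 to 50196270). The positions are those of the genes. The positions of the array's probes were not used here.

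The liver burns fatty acids in mitochondria and, for very long or branched chains, in peroxisomes, and it stores the surplus as triglyceride in lipid droplets. PPAR-alpha, which is activated by fatty acids, switches on much of the oxidation machinery during fasting. The sterol regulatory element-binding proteins (SREBPs) work on the opposite side of lipid balance and switch on the synthesis of fatty acids and cholesterol. Vnn1 encodes vanin-1, a pantetheinase anchored in the membrane that releases the vitamin pantothenate, the precursor of coenzyme A, and it is a well known PPAR-alpha target in the liver. Plin2 encodes perilipin-2, the main coat protein of hepatocyte lipid droplets. Hadhb encodes the thiolase subunit of the mitochondrial trifunctional protein, which carries out the last steps of long-chain beta-oxidation. Hsd17b4 encodes the D-bifunctional protein, which hydrates and oxidises the chain in peroxisomal beta-oxidation.

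Affymetrix MG_U74Cv2 oligonucleotide arrays were hybridised with liver RNA from 5 groups, all of them male mice. Scap-/- mice carried MX1-Cre, a recombinase switched on by interferon, and lost SCAP, the protein that escorts SREBPs to the place where they are cut to their active form. Like their controls (Scap wild type), they were aged 10 to 12 weeks, ate Teklad chow and had received 4 injections of polyinosinic-polycytidylic acid to turn on the recombinase, the last one 14 days before liver removal. TgSREBP-1a and TgSREBP-2 mice overexpressed the nuclear, active form of human SREBP-1a or SREBP-2. Like their wild-type littermates (SREBP wild type), they were aged 12 to 16 weeks and had eaten a diet high in protein and low in carbohydrate for 2 weeks, which raises the transgenes. As background, the transgenes of these lines are driven by the PEPCK promoter, and MX1-Cre also acts outside hepatocytes. Each group was 1 pool of equal RNA aliquots from 5 mice (20 µg in all), hybridised to 2 arrays, so an SD below is that between 2 hybridisations of a pool. No p-value below holds variation between mice, since hybridisations of a pool are all that was repeated.

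The 10 arrays had medians of 4.69 to 4.77 on the log2 scale, and the median standard error of a difference between groups was 0.114. Genes were compared in 1 limma fit over all 10 arrays. A probe set was called where its adjusted p was under 0.05 (Benjamini-Hochberg over the 11868 tested) and its difference at least 1.5-fold. With 2 arrays a group, their number limits the precision. No detection call comes with the values, so a dim signal may or may not lie above background. Of 28 listed hepatocyte markers 7 were measured, with a summed linear signal of 2105.2 to 3566.9 over the 10 arrays. The annotation gives no tested probe set to Scap, Srebf1 or Srebf2, so the genotypes were not checked against these transcripts. Pancreatic acinar markers (7 of 15 measured), which a liver sample should lack, summed to 148.8 to 163.4 in Scap-/- and 475.9 to 490.1 in Scap wild type. Their sums were 898.3 to 1396.7 in SREBP wild type, 158.2 to 163.8 in TgSREBP-1a and 1694.4 to 2122.5 in TgSREBP-2. Between TgSREBP-1a and TgSREBP-2, 3 of the 7 were called lower in TgSREBP-1a (Cpa1 -5.18, Gp2 -2.56, Cuzd1 -1.78), beside 0.514% of all probe sets. Against SREBP wild type, 3 were called lower in TgSREBP-1a (1.04% of all) and 2 higher in TgSREBP-2 (0.118%). In Scap-/- 2 were called lower (0.0843%), and between the controls 1 was called higher in SREBP wild type (0.0927%). The part of these transcripts in the results below was not tested.

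Among the 4 genes, Vnn1 separated the transgenic pools and was the only one called in any comparison. Its signal was 5.69 and 6.10 on the TgSREBP-1a arrays and 5.01 and 4.80 on the TgSREBP-2 arrays (log2). It was 5.50 and 5.25 in SREBP wild type, 5.46 and 5.55 in Scap-/- and 5.22 and 5.29 in Scap wild type. Both TgSREBP-1a arrays were the highest of the 10 and both TgSREBP-2 arrays the lowest, with the 3 other groups between them. For 37.0% of all probe sets the arrays of the transgenic pools did not overlap, and the share with this fuller order was not counted.

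**Figure D1:**
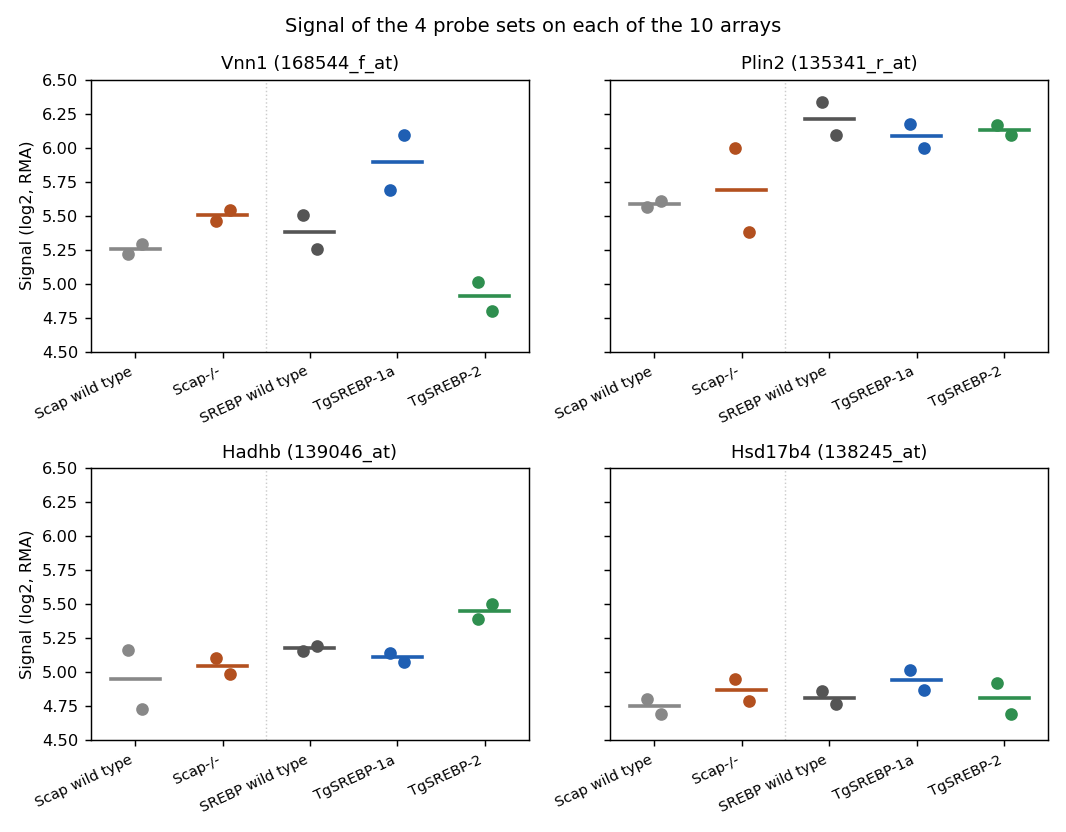
Log2 signal (RMA) of Vnn1, Plin2, Hadhb and Hsd17b4 on each of the 10 arrays. Each point is an array, each line the mean of the 2 hybridisations of a pool, and the dotted line parts the Scap study from the SREBP study. Vnn1 runs from 4.80 in TgSREBP-2 to 6.10 in TgSREBP-1a, Plin2 sits higher in the 3 groups of the SREBP study, Hadhb is highest in TgSREBP-2 and Hsd17b4 stays between 4.69 and 5.02.

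The mean Vnn1 level was 5.89 ± 0.29 in TgSREBP-1a and 4.91 ± 0.15 in TgSREBP-2 (SD, n = 2 hybridisations). Vnn1 was thus 1.98-fold higher in TgSREBP-1a (log2 difference 0.99, 95% interval 0.68 to 1.30, SE 0.141, limma adjusted p = 0.00797). The same call was made for 0.514% of the tested probe sets in that comparison, and 1 of the 4 genes had it. By its p-value Vnn1 ranked 30 among the 11868 probe sets. Against their shared SREBP wild type pool (5.38 ± 0.18, n = 2) the transgenic pools lay on opposite sides. The TgSREBP-1a difference was 0.52 (95% interval 0.21 to 0.82, limma adjusted p = 0.166; 0.31 without TgSREBP-1a replicate 2 and 0.72 without replicate 1) and the TgSREBP-2 difference -0.47 (-0.78 to -0.16, limma adjusted p = 0.496). Neither of them was called, so the called difference is the one between the transgenic pools and not that of either pool from wild type.

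The Vnn1 call rested on the second array of each transgenic pool. Without TgSREBP-1a replicate 2 the difference was 0.78 (limma adjusted p = 0.0983), and without TgSREBP-2 replicate 2 it was 0.88 (limma adjusted p = 0.102). Over all 18 alternatives that could test it, the difference stayed between 0.78 and 1.19, the adjusted p ran from 0.00456 to 0.102, and the call held in 16. The ending _f in the probe set's name marks probes that may match related transcripts as well. Vnn3, its paralogue, is given to none of the tested probe sets, so a share of the signal from Vnn3 cannot be told apart.

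**Figure D2:**
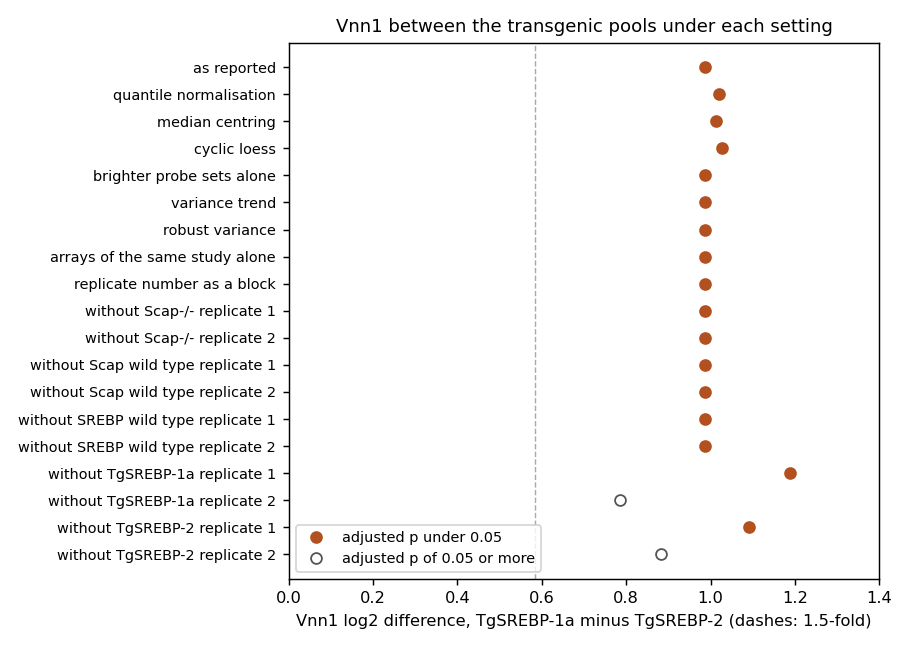
Log2 difference of Vnn1 between TgSREBP-1a and TgSREBP-2 as reported and under the 18 alternatives that could test it. Filled points have a limma adjusted p under 0.05, open points do not, and the dashed line marks 1.5-fold. All points lie above that line, and the open ones leave out the second array of TgSREBP-1a (0.78) or of TgSREBP-2 (0.88).

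Summed signals of markers of other cells were set beside each other for the same pools. Between the transgenic pools none of the measured macrophage, stellate, endothelial or bile duct markers was called (0.514% of all probe sets). Against SREBP wild type, Vsig4 (1.14) and Laptm5 (1.05), macrophage markers, were called higher in TgSREBP-1a, while C1qc (0.17) and Fcgr1 (-0.05) were not called. Epcam, a bile duct marker, was called lower there at its brightest probe set (-0.63), while its others gave 0.05 and 0.01. In that comparison 1.04% of all probe sets were called. Of 19 listed markers of macrophages and Kupffer cells 4 were measured, and their summed linear signal was 1295.1 to 1369.0 in TgSREBP-1a, 979.3 to 1056.0 in TgSREBP-2 and 656.5 to 806.5 in SREBP wild type. Between the transgenic pools Laptm5 differed by 0.51 and Vsig4 by 0.40, while C1qc differed by -0.05 and Fcgr1 by -0.01. The 2 measured stellate cell markers, of 14 listed, went opposite ways between the transgenic pools (Colec11 0.66, Acta2 -0.30). They summed to 188.4 to 212.8 in TgSREBP-1a, 124.9 to 152.5 in TgSREBP-2 and 72.3 to 115.5 in SREBP wild type. The 2 endothelial markers, of 14 listed, gave 439.2 to 485.7, 353.2 to 421.5 and 353.5 to 457.0 in the same order. The 2 bile duct markers, of 8 listed, gave 395.3 to 396.2, 402.5 to 406.0 and 480.8 to 513.4. The hepatocyte sum was 2105.2 to 2219.9 in TgSREBP-1a, 2734.4 to 3566.9 in TgSREBP-2 and 2213.4 to 3335.1 in SREBP wild type, which overlapped both. Of the 7 measured hepatocyte markers 1, Serpina11, was called between the transgenic pools, lower in TgSREBP-1a (-1.08). None of the 8 adipocyte markers listed had a tested probe set. The part of these cells in the Vnn1 difference was not tested, and in bulk tissue fewer cells of a type cannot be told apart from less RNA per cell.

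In Scap-/- liver Vnn1 was 5.50 ± 0.06 against 5.25 ± 0.05 in Scap wild type (SD, n = 2). The arrays of these groups did not overlap, and the difference was 0.25 (95% interval -0.06 to 0.56, limma adjusted p = 0.999). Between the control pools Vnn1 differed by 0.12 with overlapping arrays (limma adjusted p = 0.885). In the order of group means TgSREBP-1a came first, then Scap-/-, SREBP wild type, Scap wild type and TgSREBP-2. The neighbours Scap-/- and SREBP wild type, and SREBP wild type and Scap wild type, overlapped in their arrays.

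Plin2, the lipid droplet coat gene, had its higher group means in the SREBP study, and none of its differences was called. Its signal was 6.33 and 6.10 in SREBP wild type, 6.17 and 5.999 in TgSREBP-1a and 6.16 and 6.09 in TgSREBP-2 (log2). It was 5.56 and 5.61 in Scap wild type, and 5.997 and 5.38 on the Scap-/- arrays. All 6 arrays of the SREBP study were above all 4 arrays of the Scap study, but the higher Scap-/- array and the lower TgSREBP-1a array were almost level. How many of all probe sets part the arrays in this way was not counted.

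The control pools gave the largest Plin2 difference. SREBP wild type (6.21 ± 0.17) was 1.55-fold above Scap wild type (5.58 ± 0.03, SD, n = 2 for both), a log2 difference of 0.63 (95% interval 0.26 to 0.9997, SE 0.168, limma adjusted p = 0.405). That did not pass the test over all probe sets, although Plin2 ranked 90 of 11868 by its p-value. Between these pools 0 of the 4 genes were called, and 0.0927% of all probe sets. Diet, age, injections and study all differ between the 2 control pools and cannot be told apart.

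The transgenes and the deletion gave no called Plin2 difference. TgSREBP-1a (6.09 ± 0.12) differed from SREBP wild type by -0.13 (95% interval -0.50 to 0.24, limma adjusted p = 0.888) and TgSREBP-2 (6.13 ± 0.05) by -0.09 (-0.46 to 0.28, limma adjusted p = 0.976). The transgenic pools differed from each other by -0.04 (-0.41 to 0.33). Scap-/- (5.69 ± 0.43) differed from Scap wild type by 0.11 (-0.26 to 0.48, limma adjusted p = 0.999), and its 2 arrays lay 0.61 apart, the widest gap between duplicates for any of the 4 genes. Changes within these intervals, up or down, were not detectable at this precision. The ending _r in the probe set's name marks probes chosen under relaxed rules.

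Promoter windows of Plin2 and Hadhb were taken from RefSeq's promoter table, whose windows run from 250 bases before to 50 after a gene's start. Windows of the other 2 genes were not examined. The part of the Plin2 window that lies outside the annotated gene (GRCm38.p6, chr4:86670218-86670309, minus strand, 250 to 159 bases before the start) is shown because Plin2 is a known PPAR-alpha target. Capitals mark the stretch that matches, on the opposite strand and with 2 mismatches in all, a pair of AGGTCA in the same direction with 1 base between, the pattern to which PPAR-alpha and its partner RXR bind:
Plin2: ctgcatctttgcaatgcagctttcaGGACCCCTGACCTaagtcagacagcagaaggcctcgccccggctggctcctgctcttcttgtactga
The match spans 225 to 213 bases before the start and holds 1 exact AGGTCA, at 218 to 213. Of 32851 promoter windows, searched on both strands over the 250 bases before the start, 3.24% held this paired pattern within 2 mismatches and 14.0% held AGGTCA. The Plin2 window also held CCAAT at 73 to 69 bases before the start, as did 33.8% of windows somewhere, and no CACCCCAC, a core of sterol elements that 2.58% held. None of the 4 patterns was found in the 250 bases of Hadhb. A match is a description of letters and not a site shown to be used.

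Hadhb, the mitochondrial thiolase gene, was highest in TgSREBP-2. Its signal was 5.39 and 5.51 on the TgSREBP-2 arrays, 5.14 and 5.08 in TgSREBP-1a and 5.16 and 5.20 in SREBP wild type (log2). It was 5.11 and 4.99 in Scap-/- and 5.16 and 4.73 in Scap wild type. Both TgSREBP-2 arrays were the highest of the 10, the reverse of the place of Vnn1 in that pool. The mean of 5.45 ± 0.08 in TgSREBP-2 was 0.27 above SREBP wild type (5.18 ± 0.03, SD, n = 2; 95% interval -0.01 to 0.56, limma adjusted p = 0.790). TgSREBP-1a (5.11 ± 0.04) lay below TgSREBP-2 (log2 difference -0.34, 95% interval -0.63 to -0.05, limma unadjusted p = 0.0247, adjusted p = 0.519). The groups' arrays did not overlap in either comparison (35.0% and 37.0% of all probe sets), but neither difference passed the test. Against SREBP wild type, TgSREBP-1a differed by -0.07 (limma adjusted p = 0.944). Hadhb differed by 0.10 (-0.19 to 0.39) between Scap-/- (5.05 ± 0.09) and Scap wild type (4.95 ± 0.31), whose arrays overlapped, and by 0.23 (-0.06 to 0.51) between the control pools.

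Hsd17b4, the peroxisomal gene, varied least. Its arrays read 5.02 and 4.87 in TgSREBP-1a, 4.92 and 4.69 in TgSREBP-2 and 4.86 and 4.77 in SREBP wild type (log2). They read 4.95 and 4.79 in Scap-/- and 4.81 and 4.69 in Scap wild type. The 5 group means spanned 0.20, less than the widest gap between duplicates (0.23). TgSREBP-1a was 0.13 above SREBP wild type (95% interval -0.12 to 0.38, limma adjusted p = 0.803) without overlap between the arrays, and TgSREBP-2 was level with it (-0.25 to 0.24). The difference was 0.12 (-0.13 to 0.37) in Scap-/- and 0.06 (-0.18 to 0.31) between the control pools. A change of 1.5-fold lies outside every one of these Hsd17b4 intervals, which cover the spread between hybridisations alone.

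**Figure D3:**
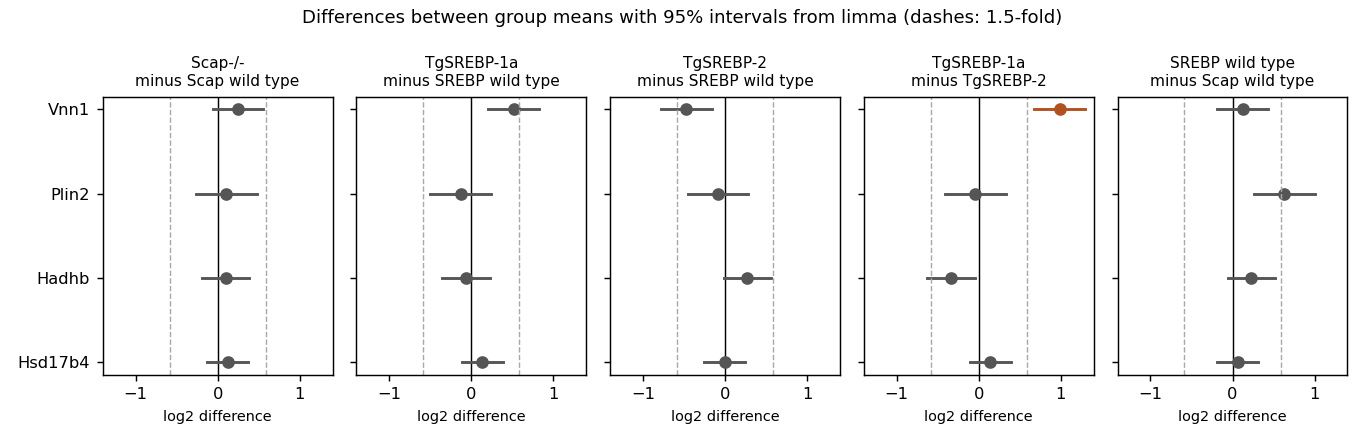
Log2 differences of Vnn1, Plin2, Hadhb and Hsd17b4 in the 5 comparisons, with limma's 95% intervals. Dashed lines mark 1.5-fold and orange marks the called difference. Vnn1 between the transgenic pools (0.99) is the one called, and Plin2 between the control pools (0.63) is the other that reaches 1.5-fold.

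No comparison called more than 1 of the 4 genes. In Scap-/- against Scap wild type 0 of 4 were called (0.0843% of all probe sets), with 0 of 4 also at an unadjusted limma p under 0.05, against 3.80% of all. All 4 differences were positive, with a median of 0.11 beside 0.00 over all probe sets, but the arrays of 1 of 4 did not overlap, where 29.7% of all probe sets did not. In TgSREBP-1a 0 of 4 were called (1.04% of all), 1 of 4 had an unadjusted limma p under 0.05 (9.40% of all) and 3 of 4 did not overlap (39.4% of all). In TgSREBP-2 0 of 4 were called (0.118% of all), 1 of 4 had an unadjusted limma p under 0.05 (6.34% of all) and 2 of 4 did not overlap (35.0% of all). Between the transgenic pools 2 of 4 did not overlap (37.0% of all), and between the control pools 1 of 4 (37.5% of all). The 2 comparisons with SREBP wild type share that pool. The medians of the 4 genes were 0.03 in TgSREBP-1a and -0.05 in TgSREBP-2, beside -0.03 and -0.01 over all probe sets.

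**Figure D4:**
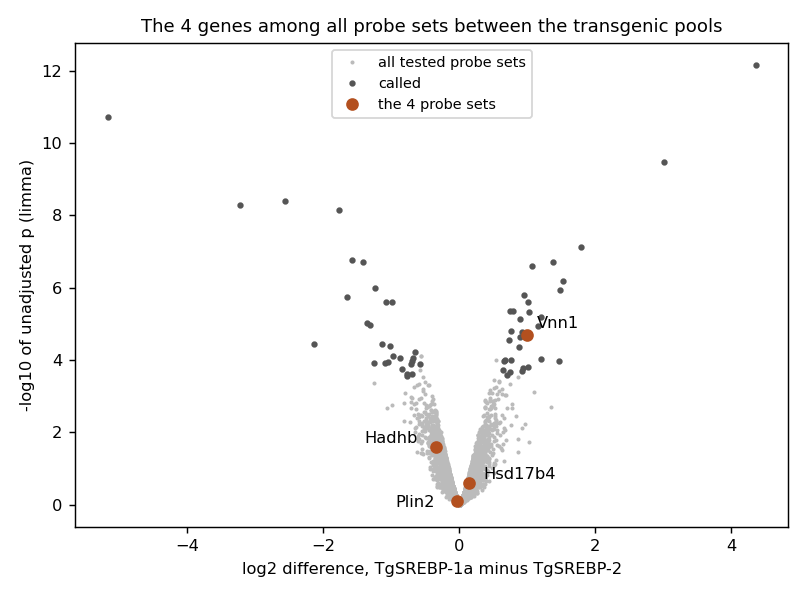
Log2 difference between TgSREBP-1a and TgSREBP-2 (x axis) against the -log10 of limma's unadjusted p (y axis) for the 11868 tested probe sets. Dark points are the 61 called and orange points the 4 genes described. Vnn1 lies among the called points at 0.99, while Hadhb (-0.34), Hsd17b4 (0.14) and Plin2 (-0.04) lie in the mass of the others.

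The signals of the 4 genes did not follow each other over the 10 arrays. Pearson's r was 0.57 between Plin2 and Hadhb, 0.47 between Vnn1 and Hsd17b4, 0.44 between Plin2 and Hsd17b4 and 0.13 between Hadhb and Hsd17b4. It was -0.51 between Vnn1 and Hadhb and -0.02 between Vnn1 and Plin2. The points are duplicate hybridisations of 5 pools, so these values describe the arrays and are not a test.

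Other genes of the same processes were followed through 9 lists of 221 genes, of which 46 were measured, 42 of them beside the 4 genes. Ppara itself and Hadha, the partner subunit of Hadhb, are given no tested probe set, and of 12 genes of omega-oxidation 0 were measured. Of the 42, none was called in Scap-/-, in TgSREBP-2 or between the transgenic pools, 2 were lower in TgSREBP-1a and 1 differed between the control pools. Of all 5928 measured genes, 60 were called higher and 29 lower in TgSREBP-1a, and 23 and 21 between the transgenic pools. These counts were 3 and 5 between the control pools, 12 and 0 in TgSREBP-2 and 4 and 5 in Scap-/-. Over the 42 genes the median difference was -0.02 in Scap-/-, -0.03 in TgSREBP-1a, 0.02 in TgSREBP-2, -0.01 between the transgenic pools and 0.02 between the control pools. Vnn1 was thus the 1 called gene of 46 between the transgenic pools.

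Both called genes of TgSREBP-1a belong to the ketogenesis list, of whose 9 genes these 2 were measured. Bdh2, a cytosolic short-chain dehydrogenase, read 6.87 and 6.26 in SREBP wild type and 5.62 and 5.53 in TgSREBP-1a, a difference of -0.98 (limma adjusted p = 0.0122). The call was lost without either TgSREBP-1a array (-1.03 and -0.94, limma adjusted p = 0.100 and 0.120). Fgf21, a fasting hormone made by the liver and a PPAR-alpha target, read 5.68 and 5.72 in SREBP wild type, 4.89 and 5.14 in TgSREBP-1a, 5.33 and 5.45 in TgSREBP-2, 5.10 and 5.09 in Scap-/- and 4.82 in both arrays of Scap wild type. Fgf21 thus lay below SREBP wild type in TgSREBP-1a (-0.69, limma adjusted p = 0.00784), where Vnn1 lay above it. The Fgf21 call was lost without SREBP wild type replicate 2 (-0.67, limma adjusted p = 0.0715) or TgSREBP-1a replicate 1 (-0.56, limma adjusted p = 0.108). Like Plin2, Fgf21 was higher in SREBP wild type than in Scap wild type (0.88, limma adjusted p = 0.00809), a call lost without any 1 of those 4 arrays (0.86 to 0.89).

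Hsd17b4 was 1 of 9 measured genes of peroxisomal oxidation, of 29 listed, and none of the 9 was called in any comparison as fitted. In TgSREBP-1a 7 of the 9 differences were positive, with a median of 0.19 and a range from -0.15 for Acot8 to 0.86 for Acot12, an acyl-CoA hydrolase. Decr2, the peroxisomal dienoyl-CoA reductase, differed there by 0.82 (limma adjusted p = 0.0527) and Acot12 did not pass the test (limma adjusted p = 0.224; 0.56 to 1.15 without 1 array), although it did with the replicate number as a block (limma adjusted p = 0.00255). Hsd17b4, at 0.13, lay below that median. In TgSREBP-2 the median was 0.01, in Scap-/- -0.04. Of 34 genes of peroxisome biogenesis and matrix 8 were measured and none called, with medians of 0.09 in TgSREBP-1a and 0.10 in TgSREBP-2. They ran in TgSREBP-1a from -0.51 for the membrane protein Pxmp4 to 0.53 for Pex16, a peroxin that inserts membrane proteins (limma adjusted p = 0.0640). The Pxmp4 difference was -0.15 without SREBP wild type replicate 1, and it was called without replicate 2 of that pool (-0.87, limma adjusted p = 0.0382).

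Plin2 was 1 of 9 measured genes of lipid droplets and lipases, of 39 listed, and none of them was called in any comparison. Between the control pools 8 of the 9 differences were positive, with a median of 0.20 beside 0.02 over all probe sets, from -0.03 for Dgat1 to 0.63 for Plin2 itself. Plin5, the perilipin of oxidative tissues, differed there by 0.52 (limma adjusted p = 0.644) and Plin4 by 0.21. In TgSREBP-2 Plin5 differed from SREBP wild type by -0.43 (limma adjusted p = 0.790; -0.73 to -0.13 without 1 array), where Plin2 differed by -0.09. The list's median was -0.09 in TgSREBP-1a, -0.01 in TgSREBP-2 and 0.04 in Scap-/-.

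**Figure D5:**
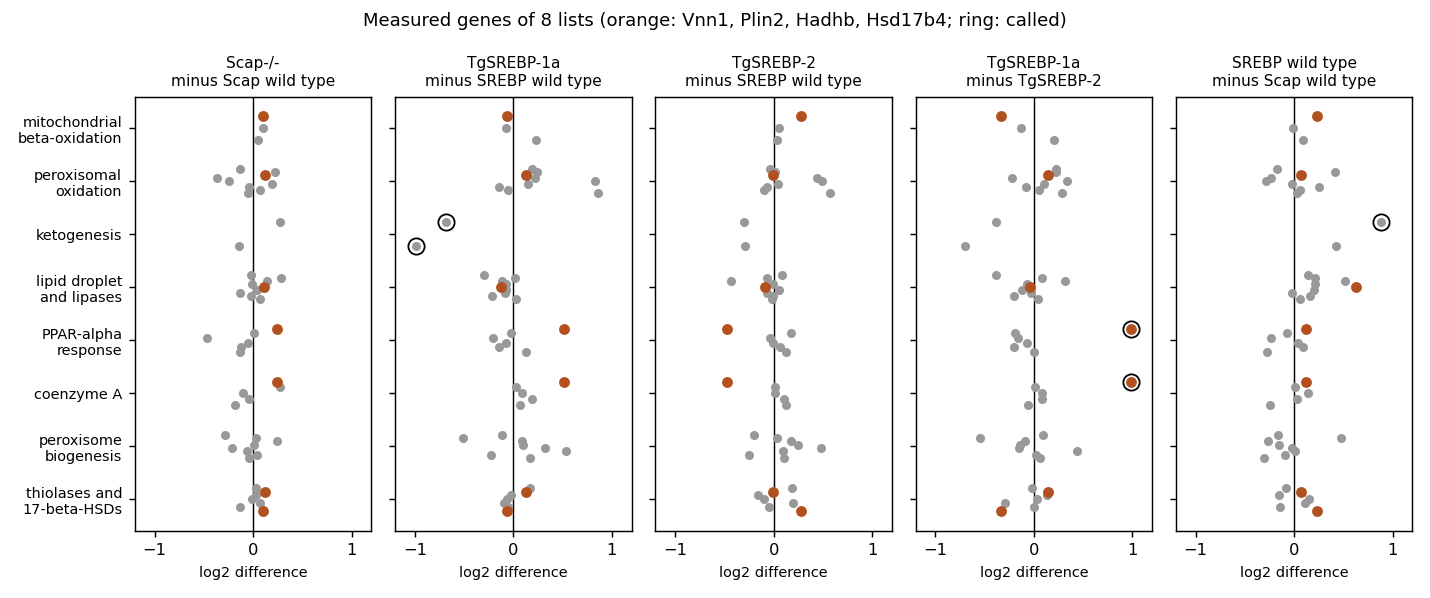
Log2 differences of the measured genes of 8 lists in the 5 comparisons. Each point is a gene, orange points are Vnn1, Plin2, Hadhb and Hsd17b4, a ring marks a called difference, and a gene in several lists is drawn in each. Rings surround Bdh2 and Fgf21 in TgSREBP-1a, Vnn1 between the transgenic pools and Fgf21 between the control pools.

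Hadhb was 1 of 3 measured genes of mitochondrial beta-oxidation, of 33 listed. The others, Acad12 and Acad9, are acyl-CoA dehydrogenases. In TgSREBP-2 they differed by 0.03 and 0.06, against 0.27 for Hadhb. One dimmer Acad9 probe set (169790_i_at) was called higher in TgSREBP-1a (0.78, limma adjusted p = 0.0103), while the 2 others of the gene differed by -0.07 and 0.02, and the call was lost without any 1 of the 4 arrays (0.74 to 0.81). Among 7 measured thiolases, trifunctional protein subunits and hydroxysteroid dehydrogenases, of 20 listed, none was called at its brightest probe set. A dimmer Hsd17b2 probe set (166140_i_at) was called lower in SREBP wild type than in Scap wild type (-1.11, limma adjusted p = 0.0448), whereas the others differed by -0.15 and 0.52. That call was lost without any 1 of 7 of the 10 arrays, and with robust variance.

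Vnn1 was 1 of 6 measured genes of PPAR-alpha and its response, of 37 listed, and 1 of 5 of coenzyme A metabolism, of 22 listed. Between the transgenic pools the other 5 of the PPAR-alpha list ran from -0.20 for Mfsd2a, a lipid transporter, to about 0 for Lpin1, a phosphatidate phosphatase, and none of them was positive beside the 0.99 of Vnn1. The remaining 4 of the coenzyme A list ran from -0.06 for Aasdhppt to 0.09 for the pantothenate kinase Pank2. In Scap-/- the lowest of the PPAR-alpha list was Rxra, the partner of PPAR-alpha (-0.47, limma adjusted p = 0.999; -0.86 to -0.09 without 1 array), and the highest was Vnn1 (0.25).

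The probe sets most like each gene over the 10 arrays were sought by Pearson's r among those with 1 gene symbol and a mean no more than 3 log2 units below the gene's own. For Vnn1 they were P2ry12 (r = 0.96, at a low mean level of 2.78), Cemip2 (r = 0.90) and BC065397 (r = 0.84) of 7715 searched. Cemip2, a hyaluronidase of the cell surface, was called higher in TgSREBP-1a than in TgSREBP-2 (0.94) and than in SREBP wild type (0.68, a call lost without any 1 of 3 arrays, both of TgSREBP-1a and the second of SREBP wild type). For Plin2 they were Zkscan7 (r = 0.92), the kinesin Kif21a (r = 0.91) and Mdga1 (r = 0.90) of 6995. Kif21a was called higher in SREBP wild type than in Scap wild type (0.83), a call lost without any 1 of 7 of the 10 arrays. For Hadhb they were Rgs8 (r = 0.95), Washc3 (r = 0.93) and Ermn (r = 0.91), and for Hsd17b4 Plxdc2 (r = 0.92), Sugp1 (r = 0.92) and Smad4 (r = 0.91), of 7716 each, and none of these 6 was called in any comparison. Values this high are the best of all those searched over 5 duplicated pools and carry no test.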

How the data were processed

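Liver RNA pools of 5 mice each were hybridised in duplicate. Per the submitters' processing notes the authors made the deposited values with RMA, a method that subtracts background, brings the arrays to a common scale and summarises a probe set's probes (its version is not given in the sources used here). Microarray Suite 5.0 is named in the design text instead, and this conflict was not settled. The deposited values were read as log2 signal from their range and near-equal medians, and were not transformed further. Of 11934 probe sets, 66 control ones were left out. The platform annotation gives 1 gene to 7717 of the tested probe sets, and 7677 of these matched mouse RefSeq by Entrez identifier.

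The comparisons were made in R 4.3.3 with limma 3.58.1 (lmFit and eBayes, 5 residual and 6.26 prior degrees of freedom, two-sided tests). The brightest probe set stood for a gene. On simulated data for TgSREBP-1a against SREBP wild type (11868 probe sets, 50 changed at each fold) the procedure made 2 false calls and found 42% of the 1.5-fold changes, 0% of the 1.2-fold ones and 100% of the larger ones (2-fold, 3-fold). A call needs an estimate of at least 1.5-fold, and this floor by itself limits the share found at 1.2-fold and 1.5-fold. The genes, the lists and the alternatives were chosen with earlier results of these data known. Named genes were the 4 genes, Fgf21, every list gene called at any probe set, each list's extremes and the 3 probe sets most like each gene.

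Alternatives to the normalisation as deposited were cyclic loess, median centring and quantile normalisation. The test was repeated with a variance trend and with robust variance, on plain _at probe sets or on brighter ones alone, with the arrays of 1 study alone, with the replicate number as a block, and leaving out each array in turn. Calls were also counted at a 2-fold floor, without a floor, by treat (against 1.2-fold) and at any probe set of a gene.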

Additional observations from a re-analysis of the deposited data

Results flagged for a closer look

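Vnn1 lay on opposite sides of wild type in the 2 transgenic pools, and the pools differed from each other in limma's test. The TgSREBP-1a pool lay above the shared SREBP wild type pool by 0.52 and the TgSREBP-2 pool below it by a log2 difference of -0.47. Neither difference from wild type was called (limma adjusted p = 0.166 and 0.496). The difference between the transgenic pools was 0.99 (limma adjusted p = 0.00797, higher in 2 of 2 TgSREBP-1a arrays). The wild type pool is common to both, so this is the difference between 2 pools of RNA, set against the spread between hybridisations alone, and says nothing of the variation between mice. The call was lost without TgSREBP-1a replicate 2 (0.78, limma adjusted p = 0.0983) or TgSREBP-2 replicate 2 (0.88, limma adjusted p = 0.102).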

How the results depend on the processing

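Of the 366 values of the 4 genes under the alternatives, 357 kept their direction and their side of the threshold, 7 reversed and 2 lost the call. Each pool had 2 hybridisations, so leaving out an array leaves a group with 1, assumed to vary like the others; the cause of the changes below was not tested. Leaving out each array in turn moved Vnn1 between the transgenic pools from 0.78 to 1.19 and between the control pools from -2e-04 to 0.25, and in TgSREBP-1a from 0.31 to 0.72. Plin2 ran from -0.20 to 0.41 in Scap-/-, from -0.21 to 0.032 in TgSREBP-2 and from -0.13 to 0.045 between the transgenic pools. Hadhb ran from -0.12 to 0.31 in Scap-/- and from 0.011 to 0.44 between the control pools, and Hsd17b4 from -0.12 to 0.11 in TgSREBP-2. The count of the 4 genes called between the transgenic pools ran from 0 to 1, and that of the 46 pathway genes from 0 to 2 there, 0 to 3 in TgSREBP-1a and 0 to 1 between the control pools.

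Between the transgenic pools 0 of the 4 genes were called with plain _at probe sets alone (which leaves out Vnn1 and Plin2, so these could not be tested), a 2-fold floor or treat. Of the pathway genes, 0 were called between the transgenic pools or between the control pools under these 3 settings, and 0 in TgSREBP-1a with the floor or treat. Plain _at probe sets also leave out Fgf21 (165847_i_at), the gene called between the control pools as fitted, so that setting could not test it. Counting any probe set of a gene gave 2 between the control pools. Nothing in the labels ties same-numbered arrays. Their deviations correlated across probe sets at 0.204 to 0.332 in 7 of the 10 pairs of groups and at -0.175 to -0.114 in the other 3, all with TgSREBP-2, the pair of transgenic pools included (-0.175), so the numbers were not taken to pair the arrays. With the replicate block 4 were called in TgSREBP-1a and 2 between the transgenic pools. Among those gained were Acot12 in the former (0.86, limma adjusted p = 0.00255) and Bdh2 in the latter (-0.70, limma adjusted p = 0.0332), the latter also without either SREBP wild type array (limma adjusted p = 0.0141). Vnn1 kept its call (0.99, limma adjusted p = 0.00456), and total calls went from 10 to 19, 123 to 186, 14 to 37, 61 to 96 and 11 to 36. Uncalled list genes also reversed when an array was left out: in Scap-/- Acad9 (171054_i_at, -0.14 to 0.34) and Pxmp2 (-0.014 to 0.50), in TgSREBP-1a Abhd5 (-0.053 to 0.11) and Slc25a16 (-0.042 to 0.11), in TgSREBP-2 Bdh2 (-0.59 to 0.015) and Pex19 (-0.17 to 1.13), between the transgenic pools Hacl1 (-0.44 to 0.0020) and Aasdhppt (-0.15 to 0.026), and between the control pools Acad9 (171054_i_at, -0.078 to 0.060) and Dgat1 (-0.090 to 0.039).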
